A study of Mus musculus with 6 samples.

Results

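The immunoglobulin variable (V) segments of the heavy, kappa and lambda loci were followed in mouse colon after deletion of Smad4. A row of the deposited gene table was taken as a V segment where its symbol began with Ighv, Igkv or Iglv, which gave 79 of 22354 rows: 24 heavy, 52 kappa and 3 lambda segments. The 3 KO libraries came from Smad4ΔLrig1 mice and the 3 WT libraries from SMAD4+ control mice. All 6 mice were C57BL/6J and were dissected 1 month after tamoxifen, and each mouse gave 1 library. Smad4 is the shared transducer of TGF-beta and BMP signals, and Lrig1, named in the genotype, marks stem and progenitor cells of the gut epithelium. How the deletion was restricted to cells, whether the controls carry a recombinase, and the age of the mice are not given in the sources used here. Crypts had been removed and the layer above the muscle taken for RNA, which was sequenced as single-end reads of 51 bases.

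An antibody chain is not encoded by a ready-made gene. During B cell development 1 V segment is joined to a diversity and a joining segment (heavy) or to a joining segment alone (kappa and lambda), and the joined exon is spliced to a constant region, so each B cell clone transcribes mainly the segments it has joined. The set of V segments read in a tissue therefore reflects its B cells and the plasma cells they become, and in the gut most plasma cells make IgA. Reads of 1 V segment are spread over many clones that share it, and a single large clone can raise 1 segment in 1 animal.

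The libraries held 18918880 to 25867997 counts, and 3 counts, the limit that a count of 0 allows, corresponded to 0.12 to 0.161 CPM (counts scaled to the library's size). Smad4 itself had 92.0, 102.1 and 59.0 CPM in KO colons, against 131.7, 152.6 and 111.0 CPM in WT colons. The groups did not overlap, but the difference did not pass edgeR's quasi-likelihood test with Benjamini-Hochberg adjustment (adjusted p = 0.338). The label stroma did not match the marker levels: 11 epithelial markers summed to 26390 ± 559 CPM in KO and 28740 ± 4414 CPM in WT libraries (SD, n = 3 each), while 6 fibroblast markers summed to 11.3 ± 2.61 CPM in KO and 3.97 ± 0.82 CPM in WT libraries. Library WT1 stood apart in 5 smooth muscle markers, with 52.0 CPM against 14.7 and 17.2 CPM in the other WT libraries and 14.1 to 15.2 CPM in KO libraries, and it also had the lowest heavy and kappa V sums. KO1 had the highest sum at every locus, so both are left out in turn where that changes a result.

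The 2 pairs of sequences given first show where segments can and cannot be told apart by a read. They are V exons of GENCODE M21 transcripts on mm10, printed 5′ to 3′ on the transcribed strand, with capitals at the bases that differ within the pair. Iglv1 (chr16:19085017-19085316, minus strand) and Iglv2 (chr16:19260401-19260700, minus strand) are shown over the last 300 bases of an exon of 305 bases, which hold 8 of their 9 differences. Igkv17-121 (chr6:68037021-68037318, plus strand) and Igkv17-127 (chr6:67861362-67861659, plus strand) are shown over the whole exon of 298 bases, which holds 6 differences.
Iglv1: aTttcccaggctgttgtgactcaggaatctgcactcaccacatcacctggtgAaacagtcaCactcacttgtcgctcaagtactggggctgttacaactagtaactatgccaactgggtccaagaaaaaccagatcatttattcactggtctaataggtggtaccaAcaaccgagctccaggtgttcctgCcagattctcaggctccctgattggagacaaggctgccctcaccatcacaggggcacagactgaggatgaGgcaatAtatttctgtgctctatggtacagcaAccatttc
Iglv2: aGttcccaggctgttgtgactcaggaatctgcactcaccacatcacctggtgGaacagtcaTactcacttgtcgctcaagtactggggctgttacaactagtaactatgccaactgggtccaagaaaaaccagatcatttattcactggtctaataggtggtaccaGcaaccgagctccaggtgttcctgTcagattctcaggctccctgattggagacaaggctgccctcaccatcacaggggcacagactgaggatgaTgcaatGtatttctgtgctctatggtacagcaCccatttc
Igkv17-121: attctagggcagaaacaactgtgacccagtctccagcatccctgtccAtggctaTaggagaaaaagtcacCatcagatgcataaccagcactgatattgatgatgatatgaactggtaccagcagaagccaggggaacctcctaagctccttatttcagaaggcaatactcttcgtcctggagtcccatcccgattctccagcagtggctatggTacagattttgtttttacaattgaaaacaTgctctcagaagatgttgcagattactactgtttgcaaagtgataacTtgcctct
Igkv17-127: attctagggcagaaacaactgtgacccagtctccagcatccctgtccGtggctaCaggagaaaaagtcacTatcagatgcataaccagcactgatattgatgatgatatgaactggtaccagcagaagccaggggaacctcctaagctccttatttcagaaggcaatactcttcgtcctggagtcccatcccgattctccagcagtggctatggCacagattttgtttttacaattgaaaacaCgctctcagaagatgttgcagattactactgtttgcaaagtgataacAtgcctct
Of the 255 windows of 51 bases in the Iglv2 exon, 73 (28.6%) occur letter for letter in Iglv1, and of the 248 in Igkv17-127, 93 (37.5%) occur in Igkv17-121. Counts within either pair are therefore uncertain as to which member a read belongs to. Over the 76 members found in the annotation, a median of 86.4% of the 51-base windows of a transcript (range 7.803% to 100%) occurred in no transcript of another annotated gene, overlapping genes included. That share was 100% for 25 members and under 50% for 9.

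The ends of the 3 heavy and 3 kappa members with the highest mean CPM, and of Iglv3, show where a V segment stops. Iglv1, the most counted lambda segment, is printed above. Each line gives the last 66 bases of the V exon, and the capitals mark the last cysteine codon that follows a tyrosine codon and any 1 codon (TATNNNTGT, TATNNNTGC, TACNNNTGT or TACNNNTGC, searched on the transcribed strand only). This cysteine closes the disulfide bond of the variable domain, and the bases after it begin the third complementarity-determining region, the part completed by joining. The heavy segments are Ighv3-6 (chr12:114288152-114288217), Ighv8-12 (chr12:115647945-115648010) and Ighv1-18 (chr12:114682632-114682697), the kappa segments Igkv5-39 (chr6:69900424-69900489), Igkv12-46 (chr6:69764523-69764588) and Igkv8-30 (chr6:70117061-70117126), and the lambda segment Iglv3 (chr16:19241207-19241272), all on the minus strand.
Ighv3-6: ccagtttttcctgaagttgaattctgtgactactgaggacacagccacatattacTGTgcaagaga
Ighv8-12: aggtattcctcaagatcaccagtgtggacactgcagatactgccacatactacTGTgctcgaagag
Ighv1-18: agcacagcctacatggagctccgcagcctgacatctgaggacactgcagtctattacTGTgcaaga
Igkv5-39: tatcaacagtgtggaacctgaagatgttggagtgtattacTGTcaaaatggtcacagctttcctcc
Igkv12-46: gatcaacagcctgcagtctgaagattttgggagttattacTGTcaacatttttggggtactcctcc
Igkv8-30: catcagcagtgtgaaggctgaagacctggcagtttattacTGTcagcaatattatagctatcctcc
Iglv3: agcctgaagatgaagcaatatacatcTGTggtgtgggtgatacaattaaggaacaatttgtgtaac
The motif was found in all 76 annotated members and in 187 of the 188 V exons annotated among all rows (99.5%). A median of 8 bases followed the cysteine codon in heavy members and 23 in kappa members, with a range of 5 to 55 in heavy and 18 to 28 in kappa members. The search did not check the reading frame, so not every motif found is shown to be this cysteine. A read that runs past the end of the exon enters the joint, which the genome does not hold as 1 stretch, and the handling of such reads was not stated.

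The mean level of V segment RNA was higher in KO than in WT colons at all 3 loci. The 24 heavy segments summed to 34.6, 21.9 and 10.8 CPM in KO libraries, against 3.58, 6.39 and 8.77 CPM in WT libraries. The 52 kappa segments summed to 96.8, 53.6 and 25.5 CPM in KO libraries, against 9.91, 26.2 and 20.1 CPM in WT libraries. The 3 lambda segments summed to 12.01, 7.89 and 5.91 CPM in KO libraries, against 1.84, 3.12 and 1.20 CPM in WT libraries. Every KO library lay above every WT library for the heavy and lambda sums, whereas KO3 fell just under WT2 for the kappa sum.

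The KO mean over the WT mean was 3.59 for heavy, 3.13 for kappa and 4.20 for lambda segments. Over all 79 segments the sum was 89.7 ± 50.9 CPM in KO and 27.0 ± 10.5 CPM in WT libraries (SD, n = 3 each), a ratio of 3.32. The KO spread was wide: KO1 reached 143.4 CPM and KO3 42.2 CPM, beside 15.3 to 35.7 CPM in WT libraries. Without KO1 the ratios were 2.61 for heavy, 2.11 for kappa and 3.37 for lambda, and without WT1 the log2 ratio was 1.56 for heavy, 1.34 for kappa and 1.996 for lambda. The part of WT1's smooth muscle RNA in its low V sums was not tested. In these bulk libraries more cells of a type and more RNA per cell cannot be told apart.

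**Figure D1:**
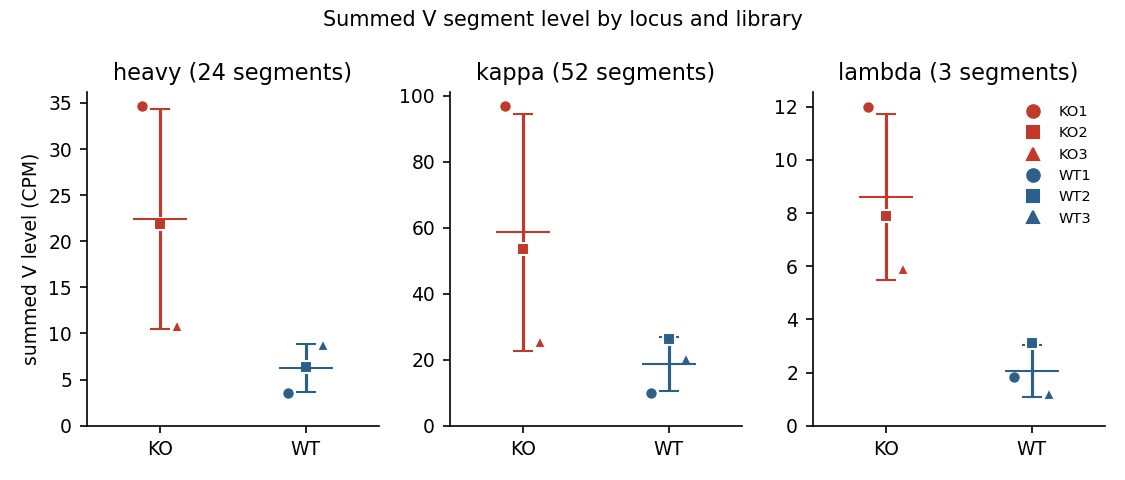
Summed level of the V segments of each locus in CPM, with KO libraries on the left and WT libraries on the right of each panel; horizontal bars are group means and whiskers 1 SD (n = 3). KO1 is highest at every locus, and KO3 (25.5 CPM) lies just under WT2 (26.2 CPM) for kappa.

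Among the heavy segments named by symbol Ighv3-6 had the highest level, and it was the most counted heavy segment in all 3 KO libraries and in 2 of 3 WT libraries. It had 9.71, 5.99 and 2.62 CPM in KO colons, against 1.06, 1.88 and 1.56 CPM in WT colons, with no overlap. Its log2 fold change was 2.03 ± 0.47 (SE), with an adjusted p of 0.161 by edgeR's quasi-likelihood test and 0.00148 by DESeq2. Ighv8-12, which led in WT3, had 6.12, 3.47 and 2.44 CPM in KO colons, against 0.275, 0.967 and 1.95 CPM in WT colons. These groups were apart too, by the narrow margin between KO3 and WT3, and the log2 fold change was 1.88 ± 0.60 (adjusted p = 0.332 in edgeR, 0.0612 in DESeq2). Ighv1-18 had 3.54, 2.66 and 0.755 CPM in KO colons, against 0.550, 0.430 and 0.758 CPM in WT colons. Here KO3 was level with WT3, and the log2 fold change was 1.97 ± 0.56 (adjusted p = 0.257 in edgeR, 0.0493 in DESeq2).

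Kappa segments were the most numerous. Igkv5-39, the most counted kappa segment named by symbol in 4 of 6 libraries, had 7.18, 5.32 and 1.69 CPM in KO colons, against 0.642, 2.15 and 2.47 CPM in WT colons. KO3 lay under 2 of the WT libraries, and the log2 fold change of 1.42 ± 0.60 did not pass either test (adjusted p = 0.565 in edgeR, 0.290 in DESeq2). Igkv12-46 had 7.04, 4.13 and 1.78 CPM in KO colons, against 0.596, 1.40 and 1.16 CPM in WT colons, with no overlap and a log2 fold change of 2.04 ± 0.53. Igkv8-30 had 5.80, 4.28 and 1.91 CPM in KO colons, against 0.505, 1.29 and 1.56 CPM in WT colons, also apart, with a log2 fold change of 1.83 ± 0.50.

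The closely alike Igkv17-121 and Igkv17-127 were both higher in every KO library than in any WT library. Igkv17-121, the leading kappa segment by symbol in KO3, had 6.40, 1.76 and 2.40 CPM in KO colons, against 0.367, 0.537 and 0.837 CPM in WT colons. Igkv17-127 had 3.82, 2.14 and 0.977 CPM in KO colons, against 0.596, 0.484 and 0.239 CPM in WT colons. Their log2 fold changes were 2.57 ± 0.57 and 2.40 ± 0.56, and since they share windows of a read's length they are not separate evidence. KO1 held 52.0% of the CPM of Igkv17-121, and without KO1 the log2 fold changes were 1.81 and 1.83. Igkv2-137 had 3.22, 1.52 and 0.932 CPM in KO colons, against 0.367, 0.322 and 0.199 CPM in WT colons, a log2 fold change of 2.67 ± 0.54, or 2.04 without KO1. Only 44.1% of the 51-base windows of Igkv2-137 were held by no other gene, so its counts are uncertain too. For these 5 kappa segments from Igkv12-46 to Igkv2-137 the adjusted p was 0.118 to 0.235 in edgeR's quasi-likelihood test and 0.000956 to 0.0217 in DESeq2. Igkv1-88 was low but even, with 0.552, 0.523 and 0.488 CPM in KO colons, against 0.138, 0.161 and 0.160 CPM in WT colons. The WT values are 3, 3 and 4 counts and the KO values 12, 11 and 11, an evenness closer than counting error alone would give on average. It had the smallest adjusted p of the members in edgeR's quasi-likelihood test (adjusted p = 0.113), while DESeq2 gave an adjusted p of 0.457.

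Igkv4-57-1 did not share the direction of the others across libraries. It had 1.01, 0.665 and 0.0888 CPM in KO colons, against 1.19, 0.108 and 0.399 CPM in WT colons, so that the groups overlapped over nearly their whole range. It was the most counted kappa segment named by symbol in WT1, with 26 of that library's 216 kappa counts (12.04%), and its log2 fold change of 0.03 ± 0.86 took either sign when single libraries were left out.

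Of the 3 lambda segments, Iglv1 led in 5 of 6 libraries and Iglv3 in KO1. Iglv1 had 4.14, 5.89 and 3.64 CPM in KO colons, against 1.61, 2.36 and 0.518 CPM in WT colons, with no overlap and a log2 fold change of 1.63 ± 0.47 (adjusted p = 0.263 in edgeR, 0.0341 in DESeq2). Iglv3 had 7.41, 1.19 and 2.09 CPM in KO colons, against 0.184, 0.537 and 0.399 CPM in WT colons. Its log2 fold change of 3.25 ± 0.77 was the largest of the tested members, and KO1 alone held 62.8% of its summed CPM. Without KO1 it was 2.14. Iglv2 had 10, 17 and 4 counts in KO libraries and 1, 4 and 7 counts in WT libraries, too few to be tested, and the groups overlapped. Per kilobase of exon, which allows for differing lengths, the mean level over all 6 libraries was 10.9 CPM for Ighv3-6, 9.34 for Igkv5-39, 7.74 for Iglv1 and 0.904 for Iglv2. Shared windows are not allowed for: 97.0%, 100%, 78.6% and 76.9% of their 51-base windows, in the same order, occurred in no other gene.

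**Figure D2:**
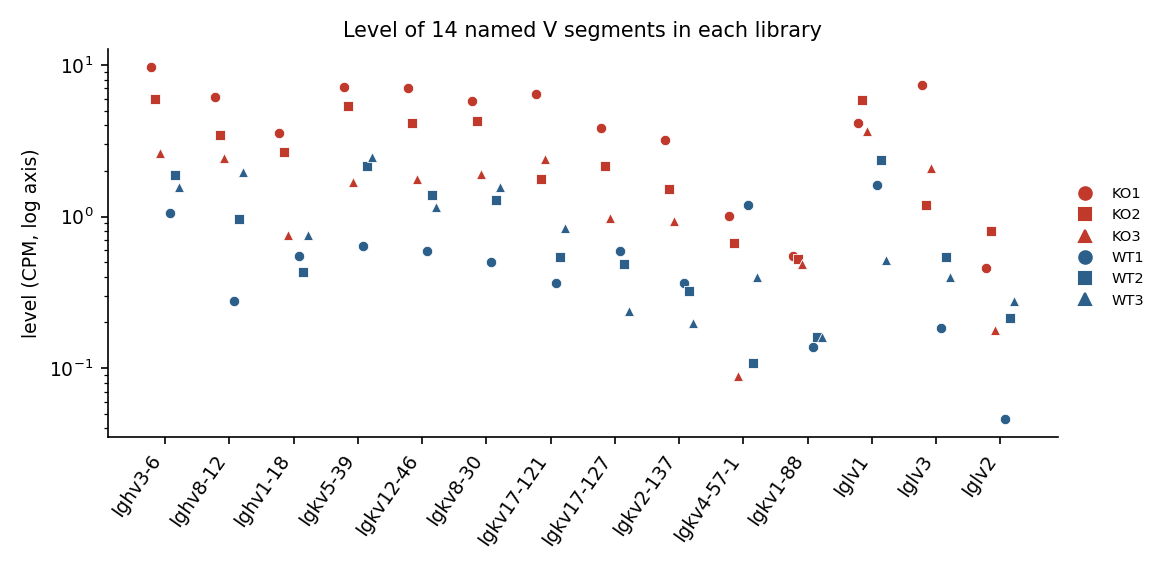
Level of 14 V segments in CPM on a log axis, 1 point per library, with the KO libraries (red) left of the WT libraries (blue) for each segment. For Igkv1-88 the 3 libraries of each group lie close together (0.488 to 0.552 CPM in KO, 0.138 to 0.161 CPM in WT), whereas for Iglv3 KO1 (7.41 CPM) lies far above KO2 and KO3, and for Igkv4-57-1 the groups overlap.

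Across the members, 31 of 79 passed the count filter, which asks for a minimum level in enough libraries, and were tested (7 heavy, 22 kappa and 2 lambda), and 48 were not. No member passed edgeR's quasi-likelihood test at an adjusted p of 0.05, and neither did any other gene (0% of 14180 tested). At an unadjusted p under 0.05 in that test, 23 of the 31 were higher in KO and 0 lower, where 5.19% of all tested genes were higher in KO. With DESeq2, 9 of the 31 passed an adjusted p of 0.05, all higher in KO, beside 1.97% of all genes with an adjusted p. The 9 were Ighv3-6, Ighv1-18, Igkv12-46, Igkv8-30, Igkv17-121, Igkv17-127, Igkv2-137, Iglv1 and Iglv3. Leaving out KO1 brought the count at an unadjusted p under 0.05 to 11 and the DESeq2 count to 0, and leaving out KO2 brought the DESeq2 count to 4. Leaving out KO3, the KO library nearest to WT, gave 8 members called by edgeR, beside 266 calls over all genes, and 14 by DESeq2. The count filter was applied anew for each omission, and the number of members then tested is not given. The DESeq2 calls over all genes and the all-gene share at an unadjusted p are not given for these omissions either. Their DESeq2 and unadjusted counts therefore have no background beside them.

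All 31 fitted log2 fold changes were above 0, between 0.03 and 3.25 with a median of 1.79, beside a median of -0.01 over all tested genes. A segment that is scarce in WT could enter the fit only through its KO counts, so these 31 do not stand for the 79. Over all 79, the KO mean was higher for 71 segments and the WT mean for 8. All KO libraries lay above all WT libraries for 17 of the 79 segments, against 5.85% of all rows, and for 12 of the 31 tested segments, against 6.76% of tested genes. The reverse, all WT above all KO, held for 0 segments. KO1 was the library with the highest level for 48 segments, KO2 for 14, KO3 for 6 and a WT library for 11.

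**Figure D3:**
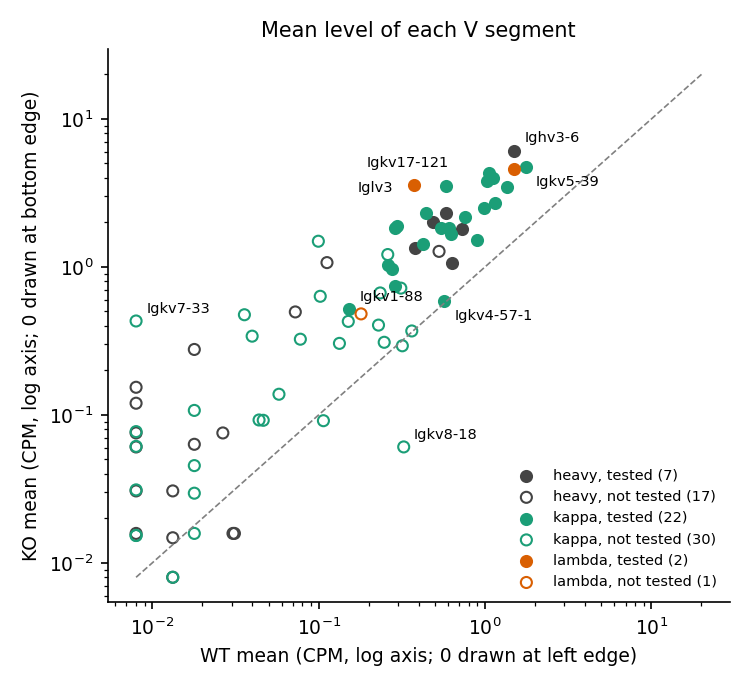
Mean level of each of the 79 V segments in KO (vertical) against WT (horizontal) libraries, in CPM on log axes, with 0 drawn at the edge; filled points entered the edgeR fit, open points did not pass the count filter, and the dashed line marks equal levels. Points lie above the line for 71 segments, and Igkv8-18 is the clearest of the 8 below it.

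Some segments drew most of their CPM from 1 library. No read fell on 12 segments in any WT library and on 2 in any KO library, and 24 of the 79 had fewer than 10 counts in all. Igkv7-33 had 4, 0 and 25 counts in KO libraries and 0 in each WT library, so KO3 held 85.8% of its CPM. Igkv5-37 had 31, 0 and 0 counts in KO libraries, against 0, 2 and 0 in WT libraries, so KO1 held 93.0%. Igkv4-68 had 94, 19 and 6 counts in KO libraries, against 4, 3 and 13 in WT libraries, and KO1 held 68.0%. KO2 (0.903 CPM) also lay above each WT library for this segment, whose log2 fold change was 2.59 ± 1.00. Igkv8-18 went the other way, with 3, 0 and 1 counts in KO libraries, against 2, 9 and 10 in WT libraries, too few for the test. The 4 segments of this paragraph were chosen after their values were seen.

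Segments are grouped into families by sequence, and no difference between families was tested. The 3 Igkv17 segments together were 5.73 times higher in the KO mean (3.56 times without KO1), the 2 Igkv2 segments 5.19 times (3.204 without KO1) and the 7 Ighv1 segments 5.03 times (3.48 without KO1). These 3 families were apart between groups and were chosen after their values were seen. Other families were apart too, such as Ighv7 at 4.13 times (3.49 without KO1) and Igkv1 at 3.47 times (3.63 without KO1). With all annotated rows the Ighv1 family, then 47 rows, was 4.10 times higher (2.34 without KO1). The 3 Ighv3 segments were 3.64 times higher (2.35 without KO1) and also apart, but overlapped between groups with all 5 annotated Ighv3 rows. The 19 Igkv4 segments, which held 23.3% of all kappa V counts, were 2.70 times higher in the KO mean (1.71 without KO1), with 68 counts in KO3 and 125 and 129 counts in WT2 and WT3.

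In the kappa locus some segments point the same way as the constant region and join by deletion, while others point the opposite way and join by inversion. The 12 plus-strand members summed to 30.3, 14.9 and 9.28 CPM in KO libraries, against 3.21, 7.52 and 3.67 CPM in WT libraries, a ratio of 3.78 with no overlap. The 40 minus-strand members summed to 66.5, 38.8 and 16.2 CPM in KO libraries, against 6.70, 18.7 and 16.4 CPM in WT libraries, a ratio of 2.91 with overlap. The 26 kappa members nearer to the joining segments had a ratio of 2.93 and the 26 farther ones 3.45. For heavy members the ratio was 3.47 for the 11 nearer and 3.73 for the 10 farther ones. No test of these differences was run.

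The split of V counts among loci differed little between groups. Heavy segments made up 24.2%, 26.2% and 25.6% of V counts in KO libraries, against 23.4%, 17.9% and 29.2% in WT libraries. Kappa segments made up 67.5%, 64.3% and 60.4% in KO libraries, against 64.7%, 73.3% and 66.8% in WT libraries. Lambda segments made up 8.37%, 9.46% and 14% in KO libraries, against 11.98%, 8.74% and 3.98% in WT libraries. The groups overlapped for each locus. Counting error did not cover the whole spread of the lambda share, whose exact binomial 95% interval was 11.9% to 16.4% in KO3 and 2.70% to 5.63% in WT3. It was not small for every share. The heavy intervals of the KO libraries overlapped (22.7% to 25.7%, 24.2% to 28.3% and 22.8% to 28.5%), and that of WT1 ran from 18.9% to 28.3%.

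These shares depended on which rows were counted as V segments. Another 112 rows (71 heavy and 41 kappa) are annotated as V genes in GENCODE M21 by gene ID but carry clone-based symbols in the deposited table. With them added, heavy segments made up 42.9% ± 1.55 of V counts in KO and 42.5% ± 1.52 in WT libraries (SD, n = 3 each). Lambda segments then made up 3.71% ± 1.29 in KO and 3.13% ± 1.69 in WT libraries. The Ighv1 family, which is 15.8% of heavy counts by symbol, was 55.5% of heavy counts in the wider set. Among the added rows, the one annotated as Igkv10-96 (AC174597.1) averaged 8.41 CPM over all 6 libraries, above every kappa member, and was the most counted V row in 5 of 6 libraries. The one annotated as Ighv1-9 (AC073561.1) averaged 4.16 CPM, against 3.8 CPM for Ighv3-6. The sum over this wider set was 464.7, 229.7 and 115.6 CPM in KO libraries, against 37.9, 101.6 and 81.4 CPM in WT libraries, with no overlap at any locus. In that set 86 rows were tested, 0 passed edgeR's quasi-likelihood test at an adjusted p of 0.05, 64 were higher in KO at an unadjusted p under 0.05, and 24 passed with DESeq2. The shares over all genes were 5.19% for higher KO levels at that unadjusted p and 1.97% for DESeq2 calls higher in KO.

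**Figure D4:**
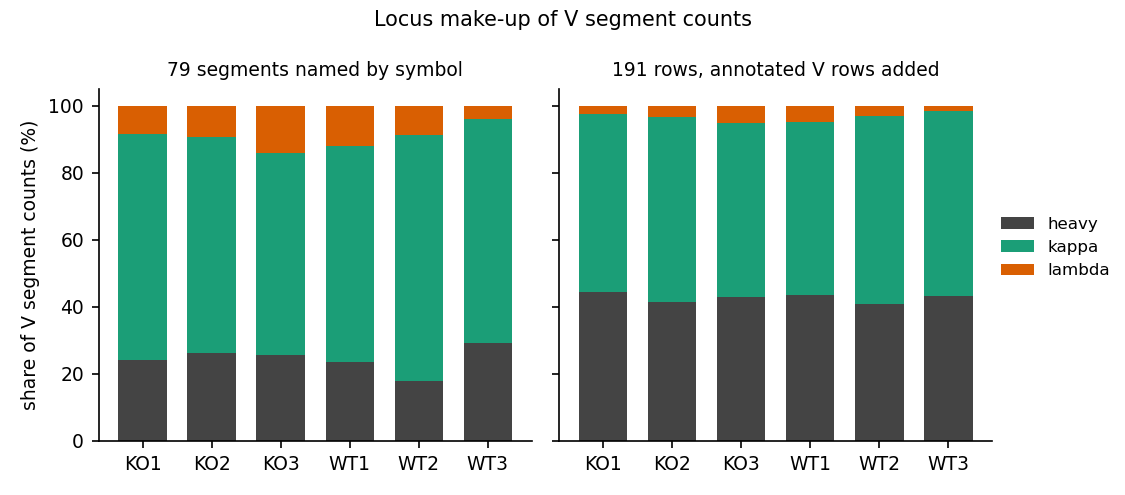
Share of V segment counts in percent by locus for each library, KO libraries on the left, for the 79 segments chosen by symbol (left panel) and with annotated V rows of other symbols added (right panel). The heavy share lies between 17.9% and 29.2% by symbol and between 40.7% and 44.5% in the wider set.

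More different segments were seen in KO libraries, 70, 63 and 62 of 79, against 49, 57 and 59 in WT libraries. The number seen depends on how many V counts a library holds, which was 3118, 1755 and 950 in KO and 334, 664 and 754 in WT libraries. At an equal 334 V counts, the expected number of different segments was 51.6, 48.8 and 50.9 in KO libraries, against 49.0, 49.8 and 51.9 in WT libraries. The groups overlapped, and the inverse Simpson number, an effective number of equally used segments, ranged from 25.3 to 31.6 in KO and from 24.6 to 28.4 in WT libraries. The 10 most counted segments held 45.7%, 50.5% and 54.7% of V counts in KO libraries, against 51.5%, 50% and 51.9% in WT libraries.

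The order of segments by usage was shared in part between mice. Across the segments, which are not independent replicates, Spearman's rho between libraries was 0.67 to 0.79 for pairs of KO libraries, 0.51 to 0.72 for a KO with a WT library and 0.55 to 0.64 for pairs of WT libraries. WT libraries hold fewer V counts, and the part of depth in their lower values was not tested.

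V counts were set against the counts of the constant regions of the same locus. Per 100 heavy constant region counts there were 1.44, 2.25 and 2.14 heavy V counts in KO libraries, against 2.03, 1.35 and 2.39 in WT libraries. Per 100 Igkc counts there were 14.8, 17.6 and 18.6 kappa V counts in KO libraries, against 16.8, 19.2 and 17.7 in WT libraries. Per 100 counts of Iglc2, the only lambda constant region with a row, there were 82.1, 123.9 and 138.5 lambda V counts in KO libraries, against 160, 200 and 57.7 in WT libraries. Iglc1, Iglc3, Iglc4 and the heavy Ighd had no row. The lambda value therefore sets all lambda V counts against only part of the lambda constant regions. The groups overlapped for each locus, and the lambda values in WT rest on 25 to 52 constant region counts. WT3 had the fewest lambda V counts (30) with the most Iglc2 counts of the WT libraries (52), so lambda V and Iglc2 counts did not run together there. With the annotated rows added, the heavy value was 9.42 ± 0.70 in KO and 9.23 ± 0.43 in WT libraries (SD, n = 3 each), and the kappa value 41.1 ± 3.21 in KO and 38.2 ± 4.55 in WT libraries.

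**Figure D5:**
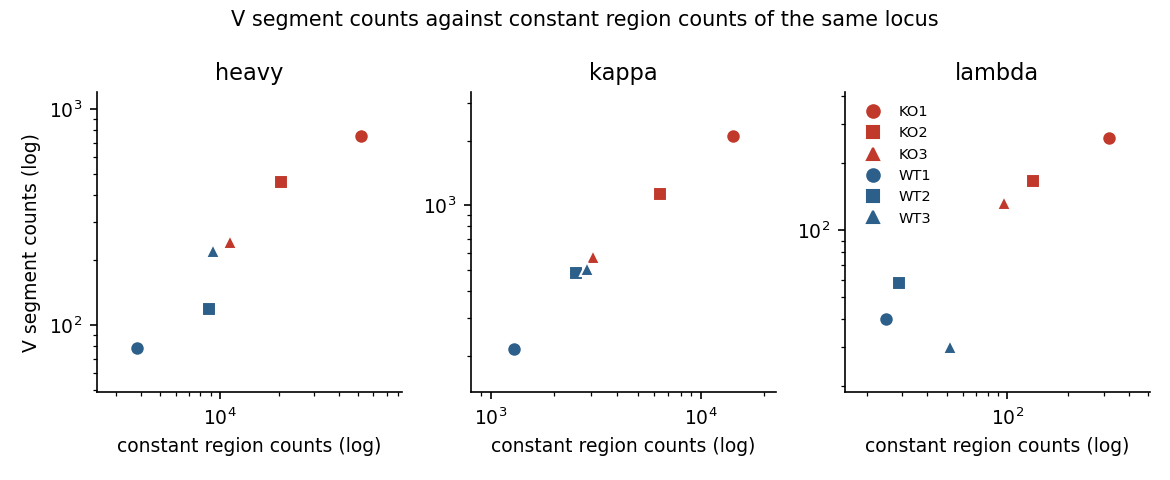
V segment counts against constant region counts of the same locus, both on log axes, 1 point per library (KO red, WT blue). Heavy and kappa V counts are lowest in WT1 and highest in KO1, as the constant region counts are, and the lambda points scatter more, with WT3 (30 V counts to 52 constant region counts) the lowest.

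Constant region levels were set beside those of the V segments. Of 8 tested, 0 passed edgeR's quasi-likelihood test at an adjusted p of 0.05, 7 were higher in KO at an unadjusted p under 0.05, and 2 passed with DESeq2, namely Ighm, the IgM heavy chain, and Iglc2. The most abundant was the row that GENCODE annotates as Igha, the IgA heavy chain, with 2130, 770.4 and 422.3 CPM in KO colons, against 133.9, 403.7 and 319.9 CPM in WT colons. Ighm had 65.3, 76.4 and 31.1 CPM in KO colons, against 19.7, 15.6 and 13.5 CPM in WT colons. Ighg1, an IgG heavy chain, averaged 4.77 ± 1.76 CPM in KO and 3.74 ± 2.65 CPM in WT libraries (SD, n = 3 each) and overlapped. The 8 tested constant regions had a median log2 fold change of 1.82, beside 1.79 for the 31 V segments tested, which do not stand for the 79. Over all tested genes, 5.19% were higher in KO at an unadjusted p under 0.05 in edgeR's test, and 1.97% were DESeq2 calls higher in KO.

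Genes that join V segments or regulate V transcripts were set beside them. Of 10 genes listed for recombination and end joining, 8 had a row. Rag1 and Rag2 had none, and Dntt, with 0 to 2 counts per library, was not tested. Of the 7 tested, such as Prkdc and Lig4, 0 passed edgeR's test, 0 were past an unadjusted p of 0.05 in either direction and 0 passed DESeq2. Of 12 transcription factors with known roles at immunoglobulin loci, 0 passed edgeR's test, 9 had an unadjusted p under 0.05 and higher KO levels, and the same number passed DESeq2. Pou2f1, Irf8 and Tcf3 did not, with KO over WT ratios of 1.02, 1.04 and 0.983. The shares over all genes were 5.19% for higher KO levels at that unadjusted p and 1.97% for DESeq2 calls higher in KO. Pou2af1, a coactivator of octamer-binding factors at V promoters, had 24.2, 27.4 and 11.1 CPM in KO colons, against 6.24, 4.19 and 5.78 CPM in WT colons. The joining segments, 9 rows of which 0 were tested, summed to 1.54 ± 0.62 CPM in KO and 0.456 ± 0.08 CPM in WT libraries. None of these rows had more than 12 counts in a library, and no diversity segment had a row. The 34 T cell receptor V segments, the counterpart in T cells, summed to 3.69 ± 0.75 CPM in KO and 1.90 ± 0.34 CPM in WT libraries, and 1 of them was tested.

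B cell markers were higher in KO together with the V segments. Of the 10 tested plasma cell markers, 5 had KO over WT ratios of 2.32 to 4.35 and 5 differed little. The part of either cell type in the V result was not tested. The 16 B cell markers, all tested, lay higher in every KO library than in any WT library, as 6.76% of all tested genes did. Among these markers 0 passed edgeR's test, 15 had an unadjusted p under 0.05 and 15 passed DESeq2. Over all genes 5.19% were higher in KO at that unadjusted p and 1.97% were DESeq2 calls higher in KO, shares that also apply to the lists below. The B cell markers had a median log2 fold change of 2.05. They summed to 379.1, 392.5 and 256.0 CPM in KO libraries, against 171.2, 172.5 and 170.1 CPM in WT libraries, a sum to which Blnk gave 136 to 141 CPM in KO and 111 to 127 CPM in WT libraries. Of 10 tested plasma cell markers, 0 passed edgeR's test, 4 had an unadjusted p under 0.05 with higher KO levels and 2 passed DESeq2 (Mzb1, listed as 2010001M09Rik, and Irf4). The list summed to 869.6 ± 125.1 CPM in KO and 684.0 ± 24.8 CPM in WT libraries (SD, n = 3 each). Xbp1, Prdm1, Sdc1, Fkbp11 and Creld2 had KO over WT ratios of 0.981 to 1.14. Those of Igj, Mzb1, Irf4, Slamf7 and Derl3 were 3.56, 3.49, 4.35, 2.58 and 2.32, with overlap between groups for Slamf7 and Derl3. Which cells of these libraries, with their high epithelial marker levels, gave the RNA of the listed genes was not tested. The summed V level was 0.142, 0.107 and 0.0518 of that list's sum in KO libraries, against 0.0234, 0.0513 and 0.0429 in WT libraries, with no overlap. Xbp1, Sdc1 and Creld2 averaged 306.0, 272.6 and 79.0 CPM in KO and 292.3, 238.2 and 80.6 CPM in WT libraries. They made up most of that list's sum, so this ratio follows mainly the V level. It is not a measure of V RNA per plasma cell. Igj, the joining chain of secreted IgA and IgM, had 310.8, 138.9 and 65.1 CPM in KO colons, against 30.6, 56.6 and 57.5 CPM in WT colons. The summed V level was 0.462, 0.600 and 0.649 of the Igj level in KO libraries, against 0.5, 0.631 and 0.523 in WT libraries, with overlap. Set against the B cell sum it was 0.378, 0.212 and 0.165 in KO libraries, against 0.0895, 0.207 and 0.177 in WT libraries. With Blnk left out of the B cell sum it was 0.603, 0.325 and 0.359 in KO libraries, against 0.254, 0.789 and 0.687 in WT libraries, so the order of the group means turned round. KO1 and KO2 differed little in B cell markers, while V segments, Igj and Igha were higher in KO1. Of 10 T cell markers, 0 passed edgeR's test, 6 were higher in KO at an unadjusted p under 0.05 and 2 passed DESeq2 (Cd4 and Cd28), and their sum was 30.1 ± 9.07 CPM in KO and 17.4 ± 1.73 CPM in WT libraries.

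Of the 79 segments, 37 have an adjusted p-value in the authors' deposited table, 9 of them under 0.05 and all 9 with higher levels in KO, where 2.86% of the rows with an adjusted p-value in that table are under 0.05. The authors' deposited table gives the smallest of these, 0.00114, to both Igkv2-137 and Igkv17-121. Its log2 fold changes lie closer to 0 than those fitted here, at 1.45 for Igkv2-137 and 1.40 for Iglv3 in the authors' deposited table.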

How the data were processed

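RNA-seq of 3 KO and 3 WT colons was analysed from 1 table. Its library columns hold whole-number counts of reads per gene as the authors deposited them, without normalization. The authors' deposited table also holds a mean normalised signal, a log2 fold change, its standard error and statistic (score columns), a p-value and an adjusted p-value, quoted only by that name. TopHat 2.1.0 (mm10), HTSeq 0.5.4p5, samtools 1.3.1 and edgeR 3.4.2 are named per the labels' design text. The submitters' processing notes give Bowtie 0.12.2, mm8 and mm10, and DESeq2 writes columns of these names, so the aligner, build and test are not settled. No source says how strand or multiply mapped reads were treated, so paralogs and overlapping genes are uncertain.

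Counts were scaled by TMM, filtered by filterByExpr and tested, KO against WT, in R 4.3.3 with edgeR 4.0.16 and its quasi-likelihood F test, which was first tested on simulated data. P-values were adjusted over the 14180 genes tested by the Benjamini-Hochberg method (threshold 0.05). Levels are TMM-scaled CPM. Alternatives were DESeq2 1.42.0, limma-voom 3.58.1, other scalings and filters, a replicate block and the omission of each library. DESeq2 without each library and the wider set of annotated V rows were added after seeing the data. No 2 libraries of a group agreed within sampling noise. Intervals and the limit of 3 counts cover counting error only. With 3 libraries a group the smallest two-sided permutation p is 0.1, so none was run.

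Of the 79 segments, 76 were found in GENCODE M21 by gene ID, 71 with the same symbol; the table's symbols are kept, although Ighv7-1 and Ighv7-3 carry each other's IDs there. Named segments are the 3 of each locus with the highest mean CPM, the most counted of each locus in each library, the 10 smallest p and all lambda segments. The members and all gene lists were chosen with earlier results of these data known. One of these gene lists is not reported here.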

Additional observations from a re-analysis of the deposited data

How the results depend on the processing

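The summed level of each locus kept its direction under every scaling tried and without each library, with log2 ratios of 1.39 to 2.18 for heavy, 1.08 to 2.01 for kappa and 1.75 to 2.504 for lambda segments over the omissions. With the most counted segment of any library (Ighv3-6, Iglv1 or Igkv5-39) left out of all libraries, the lambda log2 ratio was 2.87, the sum of Iglv2 and Iglv3 alone. Calls over all genes numbered 157 without a count filter, 327 with DESeq2 and 92 at an adjusted p of 0.1, and 0 to 266 over the omissions of single libraries with edgeR. V segments called numbered 2 without a filter and 9 with DESeq2, and 0 to 8 over the omissions. V segments higher in KO at an unadjusted p under 0.05 numbered 37 without a filter, 64 over all annotated V rows and 11 to 34 over the omissions. DESeq2 called 24 of all annotated V rows, and 0 to 14 of the members over the omissions. These unadjusted and DESeq2 counts rest on differing numbers of tested rows, 31 in the main fit and 86 over all annotated V rows. The numbers tested without a filter and over the omissions, and the all-gene shares at an unadjusted p there, are not given. The counts therefore do not show a stronger or weaker result. Segments with the groups apart numbered 17 to 42 over the omissions, a count that also grows because smaller groups overlap less. The kappa V count per constant region count moved to a log2 ratio of 0.10 (KO over WT) with all annotated rows. Igkv4-57-1 took log2 fold changes of -0.62 to 1.11 over the omissions, and the cause was not tested. Same-numbered KO and WT libraries did not deviate together (correlations of -0.05, -0.14 and 0.14), and the fit with the replicate block called 0 V segments and gave 18 at an unadjusted p under 0.05. Depth limits the 24 segments with fewer than 10 counts in all. No result met the conditions for a closer look.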
